A study of Mus musculus with 2 samples.

Results

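The Hist1 cluster of mouse chromosome 13 holds most of the replication-dependent histone genes, in a proximal and a distal part that are separated by a long run of vomeronasal receptor genes. KDM2A was followed here over all 250 bp bins of both parts, from 21700001 to 22200000 and from 23500001 to 23950000 in mm9, the genome build named in the submitters' processing notes. These are 3800 bins (2000 proximal and 1800 distal) of 10567800 in the genome. They were set by position and not by a cut on tag counts, but with earlier results of these data known. The stretch between the parts, from 22200001 to 23500000 with 5200 bins, served for comparison. Bins in 10 kb blocks without a tag of either library were not tested, which left 3760 bins of Hist1, 5000 bins of the stretch between and 10130200 bins in all.

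Chromatin precipitated by an antibody specific for KDM2A gave 1 ChIP-seq library, and input DNA, the chromatin before precipitation, gave 1 more. Both came from V6.5 embryonic stem cells (ESCs), a line from a C57BL/6 and 129/sv cross whose strain the sample records give as C57BL/6. No treatment is named for either library. The cells were grown on feeder fibroblasts and then without feeders before ChIP, and each library went through 18 PCR cycles. The KDM2A library held 10042076 tags and the input library 9760426 tags, where a tag is 1 aligned read counted at its chromosome, strand and position. There are no replicates, so every test compares these 2 libraries and not the conditions they stand for, and every interval covers counting error only. ChIP and input DNA hold no expression values, so the identity of the cells could not be checked against marker genes.

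Replication-dependent histone genes supply the core histones H2A, H2B, H3 and H4 and the linker histone H1 when DNA is copied. They are short and without introns, and many H2A and H2B genes stand back to back and share a promoter. KDM2A is a demethylase of histone H3 with a ZF-CxxC domain, a zinc finger that binds CpG dinucleotides when they are not methylated. Vomeronasal type 1 receptor (Vmn1r) genes encode pheromone receptors of sensory neurons.

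Gene names and their order were taken from the RefSeq annotation of GRCm38.p6. Because this is another build than that of the tags, no cluster below was assigned to a gene. In that order, 54 protein-coding histone genes carry a Hist1 name, of which 23 precede the run of Vmn1r genes and 31 follow it. They comprise 6 H1, 13 H2A, 15 H2B, 9 H3 and 11 H4 genes. The genes from H2bc13 to H2bc11 form the proximal group and those from H4c8 to H2ac1 the distal group. Whether the outermost ones lie inside the limits used here was not established. Among the proximal group also lie 31 tRNA genes and the protein-coding genes Zfp184, Pom121l2 and Prss16. The distal group also includes Hfe, which acts in iron uptake, Trim38 and the transporter genes Slc17a1 to Slc17a4.

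Since the ZF-CxxC domain reads CpG dinucleotides, the promoter sequences are shown first. RefSeq promoter windows of 300 bases, 250 before and 50 after the start, were found for 51 of the 54 histone genes and for 33 of 36 protein-coding Vmn1r genes. The 250 bases before the start are given 5′ to 3′ for the histone promoter with the most CpGs (H4c1), for a histone promoter with the fewest (H2bc15, tied with H2bc3) and for a Vmn1r promoter at the median of its family (Vmn1r191). Capitals mark each CpG.
H4c1 (Hist1h4a), GRCm38.p6, minus strand: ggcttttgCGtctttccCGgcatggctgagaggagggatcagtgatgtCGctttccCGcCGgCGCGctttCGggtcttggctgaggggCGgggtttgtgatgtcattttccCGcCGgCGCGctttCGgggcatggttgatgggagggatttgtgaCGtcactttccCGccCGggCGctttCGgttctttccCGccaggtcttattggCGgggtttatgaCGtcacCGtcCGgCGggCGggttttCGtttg
H2bc15 (Hist1h2bn), GRCm38.p6, plus strand: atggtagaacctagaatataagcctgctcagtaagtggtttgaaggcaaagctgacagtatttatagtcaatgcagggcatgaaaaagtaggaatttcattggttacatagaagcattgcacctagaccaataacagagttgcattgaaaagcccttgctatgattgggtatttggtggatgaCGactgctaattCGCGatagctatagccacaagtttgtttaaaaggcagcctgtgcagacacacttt
Vmn1r191, GRCm38.p6, minus strand: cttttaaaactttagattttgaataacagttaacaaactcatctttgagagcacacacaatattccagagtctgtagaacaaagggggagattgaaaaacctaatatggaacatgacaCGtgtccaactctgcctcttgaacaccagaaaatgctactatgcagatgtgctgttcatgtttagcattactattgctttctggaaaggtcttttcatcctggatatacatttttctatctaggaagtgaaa
The promoter of H4c1, a gene for the core histone H4, held 27 CpGs, that of H2bc15, a gene for H2B, held 3, and that of Vmn1r191 held 1.

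Histone promoters had an intermediate number of CpGs. The median was 11 CpGs per 300 bases (range 3 to 27, n = 51), above the median of 7 over all 27025 genes with a window but below their upper quartile of 21. That background includes non-coding genes such as lncRNA genes, whereas the histone and Vmn1r sets hold protein-coding genes only. A background of protein-coding genes alone was not tested. Only 2 of 51 histone promoters held at least 20 CpGs, those of H4c1 and of the linker histone gene H1f4 with 22, whereas 26.8% of all genes did. The 33 Vmn1r promoters held 0 to 5 CpGs, with a median of 1, and 47 of the 51 histone promoters lay above the highest of them. Among the families, the median was 13.5 in H1 (10 to 22), 9 in H2A (5 to 18), 10.5 in H2B (3 to 17), 8 in H3 (7 to 18) and 13 in H4 (4 to 27), so that the ranges of all 5 families overlapped. The proximal group had a median of 13 and the distal group of 10. CpG content relative to base composition stood higher. The ratio of observed to expected CpGs had a median of 0.758 in histone promoters, above 75.2% of all genes, and of 0.107 in Vmn1r promoters.

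**Figure D1:**
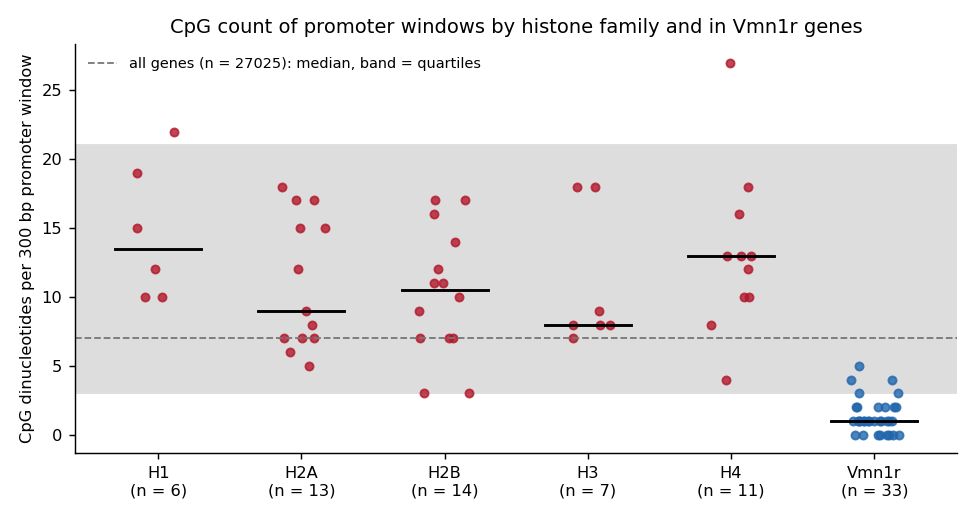
CpG dinucleotides per 300 bp RefSeq promoter window (y axis) for each gene (points) of the 5 histone families and for Vmn1r genes, with the median of each as a black bar. The dashed line and the grey band are the median (7) and the quartiles (3 and 21) of all 27025 genes, and all Vmn1r genes lie at or below 5.

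Several of these windows cannot be regarded as separate sequences. In all 10 pairs of neighbouring H2A and H2B genes that stand back to back, both genes shared a run of 220 to 279 identical bases of their windows, since each window reaches into the promoter of its partner. In addition, 3 pairs of genes had windows at least 95% identical, H2bc23 with the H2B gene that RefSeq names H4bc24 (Hist1h2br, 100%), H4c17 with H4c18 (99.7%) and H4c11 with H4c12 (95.8%). All 6 genes belong to the proximal group. How the aligner treated reads that match more than 1 place is not given in the sources used here.

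KDM2A tags were somewhat denser than input tags over Hist1. The proximal part held 2180 KDM2A and 1787 input tags and the distal part 2327 and 1973. Per tested bin these are 1.11 and 0.912 tags in the proximal part and 1.29 and 1.096 in the distal part, against 0.991 and 0.963 in the whole genome. After scaling input by total tags, KDM2A to input was 1.19 in the proximal part and 1.15 in the distal part. KDM2A tags were 55.0% of both libraries' tags in the proximal part (95% Wilson interval 53.4% to 56.5%) and 54.1% in the distal part (52.6% to 55.6%), and these intervals overlap. The genome-wide share was 50.7% and that of chromosome 13 was 47.7%.

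Of the tags of Hist1, 4.95% in the KDM2A library and 19.3% in the input library were further copies at a position and strand already seen, close to 4.75% and 20.4% in the libraries as a whole. With each position and strand counted once, KDM2A to scaled input was 1.15 in Hist1 in place of 1.17. In 50 kb steps the ratio ran from 0.518 to 1.73 in the proximal part, with 6 of 10 steps above 1, and from 0.570 to 1.79 in the distal part, with 5 of 9 above 1. Steps with more KDM2A than input and steps with less were thus found in each part. The value 1 in these counts rests on scaling by total tags. With input scaled by bins outside clusters, the ratio was 1.51 in Hist1 and 1.30 in the genome, and 7 proximal and 8 distal steps were above 1.

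**Figure D2:**
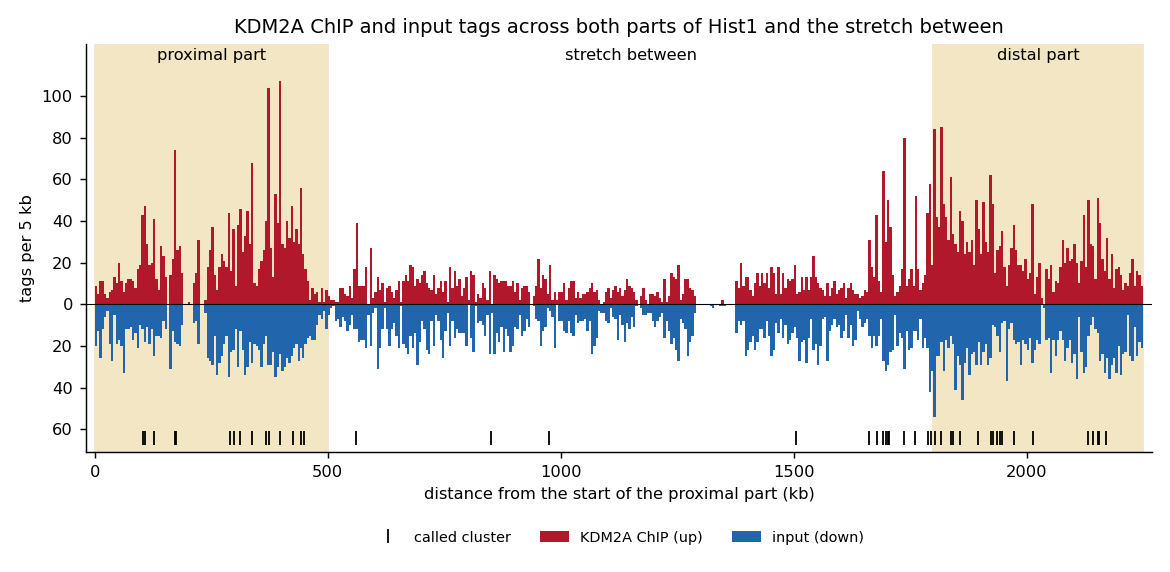
Tags per 5 kb (y axis, KDM2A ChIP upward in red, input downward in blue) against the distance from the start of the proximal part in kb, with both parts of Hist1 shaded and called clusters as black ticks. KDM2A rises above input in the later part of the proximal region and at the start of the distal part, with up to 107 tags per 5 kb, and the stretch between is low except for its last 150 kb.

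More bins were called enriched in Hist1 than in the genome as a whole. The KDM2A tags of a bin were tested (exact Poisson test, one-sided) against the larger of 2 levels, the mean of the genome and the scaled input of the surrounding 5 kb, with Benjamini-Hochberg adjustment over all bins of the genome and a limit of 0.01. In Hist1, 65 of 3760 bins were called, or 1.73% (95% Wilson interval 1.36% to 2.20%), where 1.05% of all bins of the genome were called. The same test with KDM2A and input exchanged called 3 bins of Hist1, where it called 0.144% of the genome. The percent called in each part was above that of the genome, with 33 bins (1.68%) in the proximal part and 32 bins (1.78%) in the distal part, and the lower bounds of their intervals were 1.20% and 1.26%. Intervals on called bins, here and below, treat bins as independent. Called bins are often neighbours, so these intervals are likely too narrow, and whether either part differs from the genome was not tested.

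Merging called bins no more than 500 bp apart gave 33 clusters, 15 in the proximal part and 18 in the distal part. This is 30.6 and 40 clusters per Mb, against 17.3 in the genome. The median 500 kb step of the genome held 4 clusters, and 18.6% of such steps held at least the 15 of the proximal part. The clusters held 16.8% of the KDM2A tags of Hist1 (15.7% to 17.9%) in 2.10% of its bins, against 2.31% of the input tags (1.88% to 2.85%). Over the genome, clusters held 16.3% of the KDM2A tags, so that the share in Hist1 was near the background. Of the tags inside the clusters of Hist1, KDM2A made up 89.7% (87.5% to 91.6%), near the 89.2% over all clusters.

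The clusters of Hist1 were numerous, but a smaller share of them was high than in the genome. The height of a cluster, its KDM2A tags in the highest bin, ranged from 7 to 23 with a median of 11, against a median of 12 in all 43912 clusters of the genome. The median was also 11 on chromosome 13, and 9 in the stretch between. A height of at least 15 tags was reached by 6 of 33 clusters, or 18.2% (8.61% to 34.4%), and by 36.4% of the clusters of the genome, which lies above that interval. In the proximal part the share was 26.7% (10.9% to 52.0%), an interval that holds the value of the genome. In the distal part it was 11.1% (3.10% to 32.8%). The stretch between had 21.4% (7.57% to 47.6%) and chromosome 13 had 34.0%. A height of 7 to 9 tags, at or just above the lowest height that was called anywhere, was found in 12 clusters and of 10 to 14 tags in 15. A single bin made up 17 clusters (51.5%), close to 51.1% in the genome, and 8 clusters were 1 kb wide or more. The upper quartile of height was 13 tags in Hist1 and 18 in the genome.

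**Figure D3:**
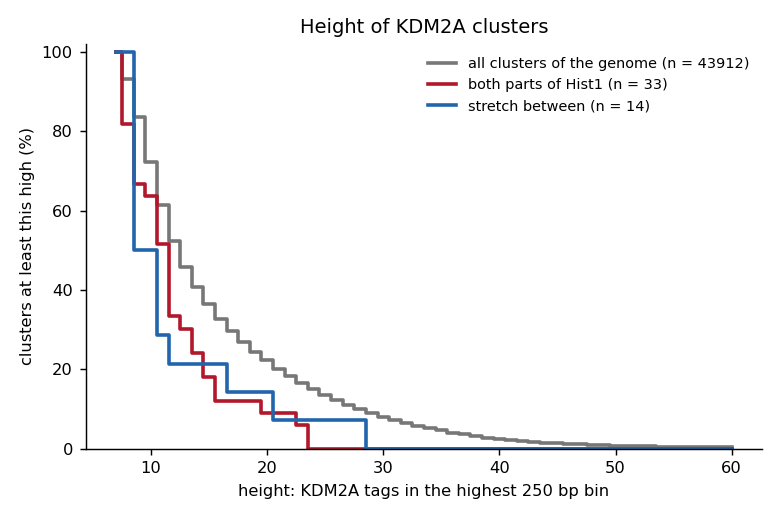
Share of clusters (y axis, %) that reach at least the height on the x axis, in KDM2A tags of the highest 250 bp bin up to 60, for both parts of Hist1 (33 clusters), the stretch between (14) and the genome (43912). The line of Hist1 falls below that of the genome and ends at 23 tags.

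The proximal part had the clusters with the most tags. The cluster from 22097751 to 22099250 held 82 tags of KDM2A and 4 of input and reached a height of 19 (lowest adjusted p = 6.72e-14, exact Poisson test). The cluster from 22073001 to 22074250 held 75 and 7 tags and reached a height of 23 (adjusted p = 6.58e-15, exact Poisson test). Together with the cluster from 21870751 to 21872500 they held 53.3% of the KDM2A tags in proximal clusters. The latter was the widest of Hist1, at 1750 bp, and was flat. It held 55 KDM2A and 6 input tags, but no bin of it held more than 10 KDM2A tags, a height that 72.2% of all clusters of the genome reach.

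The cluster from 22037001 to 22037750 was narrower, with 47 tags of KDM2A, 7 of input and a height of 22 (adjusted p = 4.30e-17, exact Poisson test). It was among the highest 18.3% of the genome. The cluster from 22142501 to 22143000 held 22 KDM2A and 2 input tags with a height of 15, and the single bin from 21989001 to 21989250 held 14 and 2 tags. The cluster from 22010501 to 22011250 held 25 and 4 tags, with a height of 11. The lowest height, 7 tags, was shared by 3 proximal clusters of a single bin each, of which the first along the chromosome were those from 21807501 to 21807750 with 1 input tag and from 21999251 to 21999500 with 2. Each had an adjusted p of 0.00771 (exact Poisson test on the tag count), and all 7 tags of the latter lay on the plus strand.

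The distal part had 1 cluster of comparable height. From 23515251 to 23516750 it held 61 tags of KDM2A and 7 of input and reached a height of 23 (adjusted p = 1.39e-20, exact Poisson test). The next highest, from 23537501 to 23538750, held 39 and 7 tags with a height of 15 (adjusted p = 1.02e-10, exact Poisson test). No other distal cluster reached 15 tags. The clusters from 23853001 to 23854000 and from 23622751 to 23623750 held 31 KDM2A tags each, with 3 and 4 input tags and heights of 14 and 10. The single bin from 23673501 to 23673750 held 13 KDM2A tags and 0 input tags, a count that allows up to 3.

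The cluster from 23831251 to 23831750 held 23 KDM2A and 2 input tags with a height of 12. The cluster nearest to the start of the distal part, from 23503751 to 23504500, held 29 KDM2A tags but also 8 input tags, the most input of any cluster in Hist1, and KDM2A made up 78.4% of its tags (62.8% to 88.6%). The lowest height was again 7 tags, in 3 distal clusters of a single bin each, of which the first were those from 23540751 to 23541000 with 0 input tags and from 23594501 to 23594750 with 1. In the distal part the 3 clusters with the most tags held 36.5% of the tags in clusters, so that they were spread more evenly than in the proximal part.

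**Figure D4:**
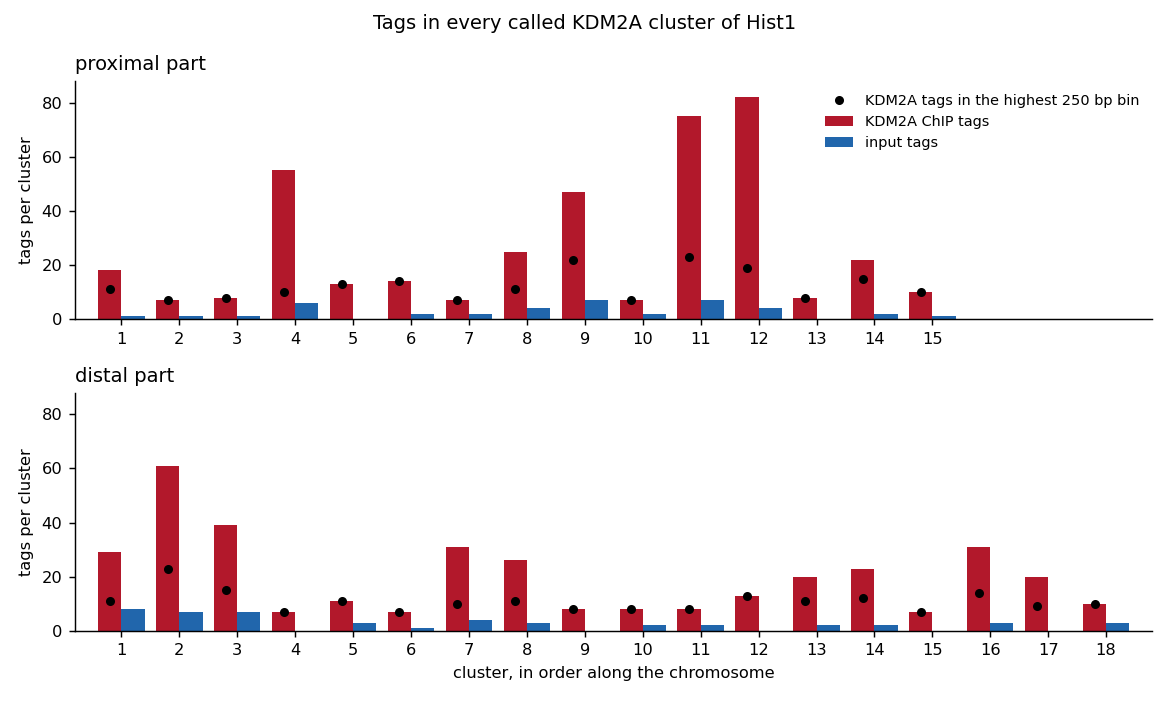
KDM2A ChIP tags (red bars), input tags (blue bars) and the KDM2A tags of the highest 250 bp bin (black points) of each called cluster, in order along the chromosome, for the proximal part (15 clusters) and the distal part (18 clusters). Red exceeds blue in every cluster, and the red bars reach 82 tags in the proximal and 61 in the distal part.

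Over all 33 clusters, 371 KDM2A tags lay on the plus strand and 386 on the minus strand, and 27 clusters had at least 3 tags on each strand. 7 clusters held no input tag. No cluster held more than 8 input tags. Copies were 7.93% of the KDM2A tags in these clusters, against 4.95% over Hist1. When each position and strand was counted once, 26 of the 33 clusters overlapped a called cluster, and background calling over the genome was then 0.97% of bins, or 0.00328% with the libraries exchanged.

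Around the highest bin, the profile of Hist1 was lower than that of all clusters. The mean was 11.5 KDM2A tags in the highest bin and 4.24 and 4.55 tags in the bins next to it, compared with 15.4, 7.11 and 7.42 over the genome. For the 14 clusters of the stretch between, the mean of the highest bin was also 11.5. Median heights lay closer together, at 11 in Hist1 and 12 in the genome. At a distance of 4 kb the means were 1.70 and 1.36 tags in Hist1 and about 2.55 and 2.56 in all clusters. Mean input in the highest bin was 1 tag in Hist1 and 1.83 over the genome. The highest bins were chosen by their KDM2A tags, so that these profiles are a description.

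**Figure D5:**
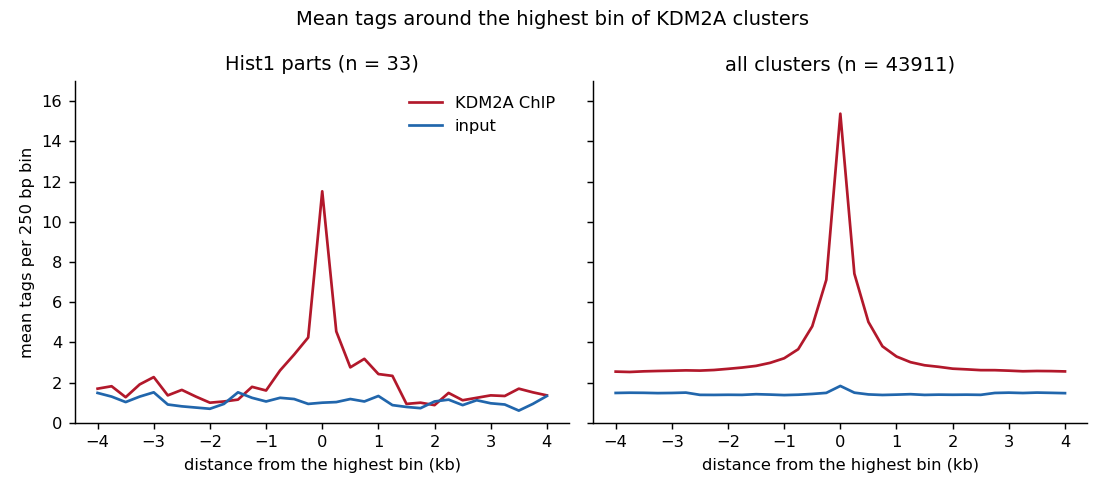
Mean tags per 250 bp bin (y axis) against the distance in kb from the highest bin, for the 33 clusters of Hist1 (left) and 43911 clusters of the genome that lie away from chromosome ends (right), with KDM2A ChIP in red and input in blue. KDM2A rises to 11.5 tags in Hist1 and 15.4 in all clusters, and input stays near 1 to 2 tags in both.

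Each part had long gaps without a cluster. 13 gaps of more than 25 kb, counted from the limits of the parts, took up 719.5 kb of both parts. Whether these gaps differ from those of clusters placed at random was not tested. The longest lay from 23714501 to 23831250 in the distal part, with 419 KDM2A and 465 input tags, and from 21875001 to 21989000 in the proximal part, with 333 and 337 tags. Bins in runs of at least 1 kb without a tag of either library made up 25.2% of the tested bins of this proximal gap and 12.0% of the distal one, compared with 7.93% in Hist1 and 13.8% in the genome. In the 50 kb from 21900001 to 21950000, within the proximal gap, the share was 50.5%, the highest of the 19 steps of Hist1. Enrichment could not be measured in those bins. Whether the near-identical genes of the proximal group lie there was not tested.

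KDM2A was low at both ends of the proximal part and at the far end of the distal part. From 21700001 to 21802750 there were 225 KDM2A and 324 input tags, a KDM2A share of 40.98% (36.9% to 45.1%). From 22148001 to 22200000 the share was 35.4% (29.0% to 42.3%), with 69 and 126 tags. From 23870751 to 23950000 it was 36.6% (32.9% to 40.6%), with 218 and 377 tags. These shares are below the 46.8% found over all bins of the genome outside clusters. The share outside clusters on chromosome 13 was 44.9%, which lies inside the interval of the gap from 21700001 and above the other intervals. The remaining gaps over 25 kb ranged from 44.4% to 58.3%.

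The comparison with the stretch between the parts asked whether KDM2A differed between these windows, which were set by position. The stretch was chosen for its run of Vmn1r genes, but no gene was placed in it. The stretch held 2524 KDM2A and 3232 input tags, or 0.505 and 0.646 per tested bin, and KDM2A to scaled input was 0.759 there against 1.17 in Hist1. The odds of a tag being KDM2A rather than input were 1.53 times higher in Hist1 (95% interval 1.43 to 1.64, p = 1.93e-35, two-sided Fisher's exact test on tags). With each position and strand counted once the odds ratio was 1.52 (1.42 to 1.64). These tests on tags, here and below, treat tags as independent. The scaled ratio varied between 50 kb steps, from 0.389 to 1.32 in the stretch between. The intervals are therefore likely too narrow and the p-values too small. Called bins were 22 of 5000, or 0.44% (0.291% to 0.665%), below the 1.05% of the genome. Both libraries were thin in this stretch, where 23.6% of tested bins lay in runs without a tag, and the part of this in the lower number of calls was not tested.

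A difference was also found over bins in no called cluster. No margin was left around clusters, so tags in their flanks count as outside. The part of these flanks in the difference was not tested. Outside clusters, Hist1 held 3750 KDM2A and 3673 input tags, a scaled ratio of 0.992, and the stretch between held 2278 and 3189, a ratio of 0.694. The odds ratio was 1.43 (1.33 to 1.53, p = 2.41e-23, two-sided Fisher's exact test). The ratio outside clusters was 0.991 in the proximal part and 0.993 in the distal part, both above 0.854 over the genome and 0.792 over chromosome 13. No bin outside clusters held more than 8 KDM2A tags in any of these 3 regions.

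The stretch between was itself uneven. Of its 14 clusters, 10 lay in the last 150 kb, next to the distal part, a division that was chosen after the clusters were seen and is given with no test. That piece held 714 KDM2A and 566 input tags, a scaled ratio of 1.23, which is above that of both parts of Hist1, and 2.83% of its bins were called. The stretch before it held 1810 and 2666 tags, a ratio of 0.660, and 4 clusters, with 0.114% of bins called. Against the stretch without its last 150 kb, the odds ratio of Hist1 was 1.77 (1.64 to 1.90).

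The highest cluster of the 3 regions lay in this last piece and not in Hist1. From 23436751 to 23437750 it held 67 KDM2A and 11 input tags with a height of 28 (adjusted p = 6.39e-22, exact Poisson test). The cluster from 22260001 to 22260500, near the proximal part, came next in the stretch with 27 and 1 tags and a height of 20. The single bin from 23401501 to 23401750 had 16 and 1 tags, that from 23399001 to 23399250 had 11 and 4, and the cluster from 23460501 to 23461250 had 26 and 3 with a height of 10. In the RefSeq order, the last Vmn1r gene and H4c8, the first histone gene of the distal group, are separated by 45 tRNA genes, 9 lncRNA genes and the protein-coding genes Zfp322a, Abt1, Btn1a1 and Btn2a2. The promoters of Zfp322a and Abt1 held 22 and 21 CpGs, near the 22 of H1f4, and that of Btn2a2 held 6. None of these genes was assigned to a cluster. The place of H4c8 relative to the start of the distal part at 23500001 was not established, so the first distal clusters, such as those from 23515251 and 23537501, may lie among these genes and not among histone genes.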

How the data were processed

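KDM2A ChIP and input DNA of mouse ESCs were sequenced, 1 library each. Per the labels, the authors aligned the reads with Bowtie to mm9 and deposited raw counts, 1 line for each position and strand that holds a tag. The version of the aligner, its settings and its handling of reads with several matches are not given in the sources used here. The counts per position reach 7 in the KDM2A library and 9 in the input library. Groups came from the antibody named in the sample labels.

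Each tag was moved 50 bp toward the 3′ end of its strand and assigned to a bin of 250 bp, and input was scaled by total tags (1.03). The Poisson test and Fisher's exact test were used as stated in the results, since 1 library per kind allows no model of replicate spread. The calling steps were tested on simulated data. Python 3.11.15, numpy 2.4.6, pandas 2.3.3, scipy 1.17.1 and matplotlib 3.10.9 were used. The regions, gene lists and tests were chosen with earlier results of these data known. The alternatives counted each position and strand once, or used no movement of tags, 500 bp bins, an adjusted p limit of 0.0001, the genome mean alone, and input scaled by bins more than 2.5 kb from any cluster.

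Named clusters were, in each part, the 5 highest, the 5 with the most KDM2A tags and the 2 lowest, with ties broken by tags and then position, the 5 highest of the stretch between, and gaps over 25 kb. Printed promoters were the histone promoters with the most and the fewest CpGs and a Vmn1r promoter of median count. Promoter windows are those of RefSeq for GRCm38.p6, the first listed per gene. No genome sequence of mm9 was used, so clusters were not tied to genes, and the window limits could not be checked against genes in that build.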

Additional observations from a re-analysis of the deposited data

How the results depend on the processing

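Of 34 values under the alternatives, 23 were classed as unchanged and 11 as moved. Only the odds ratios have a direction, and 0 of them changed it or, where a p-value was computed, the side of a threshold. The counts, shares and percents carry no test, so they could not cross one. Not all of the 23 stayed within an interval. They include cluster counts, which have no interval, and an odds ratio of 1.77, which lies above the main interval of 1.43 to 1.64. The odds ratios stayed above 1 under the alternatives run for each, and the one outside clusters lay between 1.397 and 1.46. With an adjusted p limit of 0.0001 the clusters fell from 33 to 17 in Hist1 and from 14 to 5 in the stretch between. With the genome mean alone and with input scaled by bins outside clusters they rose to 46 and 45 in Hist1, and 14 were called in the stretch between under each. The share of KDM2A tags in clusters, 16.8%, was 14.2% when copies were dropped, 15.2% without movement of tags, 9.01% at the limit of 0.0001, 20.5% with the genome mean alone and 19.3% with input scaled by bins outside clusters. The percent of bins called in Hist1, 1.73%, rose to 2.5% in bins of 500 bp and to 2.39% against the mean of the genome only. It was 0.718% under the stricter limit. After copies were dropped, 1.41% of bins were called in Hist1 and 0.97% in the genome. Under the other alternatives, called bins and clusters of Hist1 were not set beside those of the genome. Whether Hist1 stayed above the genome there was therefore not tested. The limit of 0.0001, the genome mean alone and input scaled by bins outside clusters shift calls by their construction. In the last of these the scale was 0.794 in place of 1.03, which can only lower the level a bin is tested against. The cause was not tested for the others. The median CpG count of histone promoters lay above 58.1% of all genes, and the median ratio of observed to expected CpGs above 75.2%. The stretch between without its last 150 kb, chosen after seeing the data, gave an odds ratio of 1.77. Of the 33 clusters, 17 were called in all 6 alternatives and 26 with 500 bp bins. The 17 are those called at the limit of 0.0001, so that limit alone set this number. All 33 were called with the genome mean alone and with input scaled by bins outside clusters. The share over all clusters of the genome was not computed. Clusters of 7 tags stand at the lowest height that this depth allows. No paired analysis was possible because there is only 1 ChIP and 1 input library.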

Other observations

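Short motifs known from histone promoters were counted in the same RefSeq windows, searched as exact letters on both strands. These motifs were chosen with the gene lists known, are not contained in one another, and were not set against the tags. CCAAT, the letters of the CCAAT box bound by NF-Y, was found in 43 of 51 histone windows, in 12 of 33 Vmn1r windows and in 37.9% of all genes. It was in every window of H1 (6), H2A (13), H2B (14) and H3 (7), and in 3 of 11 windows of H4. TATAAA was found in 31 of 51 histone windows, in 9 of 33 Vmn1r windows and in 14.2% of all genes. ATTTGCAT, the octamer bound by POU domain factors, was found in 5 of 14 H2B and 5 of 13 H2A windows, in 0 of the other 24 histone windows, in 3 of 33 Vmn1r windows and in 1.75% of all genes. H2A and H2B windows of back-to-back neighbours share most of their bases, so these counts are not separate promoters.

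With KDM2A and input exchanged, 3 clusters of more input than KDM2A were called in Hist1 and 6 in the stretch between, and 0 in either when each position and strand was counted once. Over the genome these counts were 14228 and 221. The tested bins were 3760 in Hist1, 5000 in the stretch between and 10130200 in the genome, and no difference from the genome was tested. The input copies at the same position and strand were 19.3% of input tags in Hist1 and 18.6% in the stretch between.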
